A study of Homo sapiens with 24 samples.

Results

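Transcript levels of H1 cells after 72 h of dorsomorphin were compared with those after 12 h. The comparison rests on the 4 arrays labelled 72 h and the 4 labelled 12 h, 8 of the 24 arrays of a time course that also sampled 0, 24, 36 and 48 h. H1 is a widely used line of human embryonic stem cells. Dorsomorphin, also named compound C in the labels, blocks the type I receptors of BMP ligands and the energy-sensing kinase AMPK, and its dose is not given in the sources used here. Per the labels' protocols, the cells were kept on Matrigel without feeder cells, plated densely as single cells in the stem cell medium mTeSR, and switched once confluent to a medium of DMEM/F12 with serum replacement, non-essential amino acids and β-mercaptoethanol that was renewed daily. Both groups therefore carried the new medium and the compound and differed in the time spent in them, and no untreated cells of either age were measured, so time in culture and exposure to the compound cannot be told apart. How many hours separated each harvest from the last medium change is not stated, and 12 h, unlike 72 h, is not a whole number of days. Whether replicates 1 to 4 of a time came from different cultures is not stated, so the p-values cover the spread among the arrays alone, and that spread may be technical. All 17760 genes named on the array were considered. Of these, 10215 lay above background on at least 4 of the 24 arrays and were tested, and 7545 were too dim.

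BMP signals steer uncommitted embryonic cells towards epidermal and other non-neural fates, and blocking them lets cells take a neural fate. The first neural tissue to form is anterior in character and is marked by transcription factors of the forebrain and eye field such as OTX2, SIX3, PAX6 and HESX1. Secreted antagonists of Wnt and BMP keep this tissue anterior, while the factors that hold the pluripotent state, POU5F1 and NANOG among them, are shut down.

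Signals came from the Illumina HumanHT-12 v4 bead array as log2 values between 5.57 and 15.51. Background was set at 7.10, the 99th percentile of 387 measurements of olfactory receptor genes, a family taken as silent in these cells. Between 9251 and 9474 genes lay above it on any single array, and the median r across measurements between 2 arrays of a time was 0.991 (range 0.986 to 0.993). On 6 arrays, 1 at each time, the transcript CLEC2A read 7.17 to 7.56, against 9.10 to 10.71 on the other 18, and these arrays also deviated alike from the others of their time (r of the deviations between 0.26 and 0.58). They were replicate 4 at 12 h and replicate 2 at 72 h among the arrays compared here, and replicate 2 at 0 h and 24 h and replicate 4 at 36 h and 48 h. Results are given with these arrays unless their removal, or a block for them in the model, is stated. Why these arrays stood apart was not tested. The precision of these values is limited by how many arrays were run.

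At 72 h 1915 genes were higher than at 12 h, 18.7% of those tested, and 1951 were lower, 19.1%, in limma's moderated test with Benjamini-Hochberg adjustment at a threshold of 0.05. Together these 3866 genes make up 37.8% of the genes tested. Of the higher genes 203 changed 2-fold or more (1.99% of those tested), and of the lower genes 197 did (1.93%). At 1701 genes (16.7%) all 4 arrays of 72 h lay above all 4 of 12 h, and at 1740 (17.0%) all 4 lay below. Without the 6 arrays low in CLEC2A 1667 genes were higher and 1703 lower. The rest of the text reads the counts of each gene group against the shares of 18.7% and 19.1%.

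**Figure D1:**
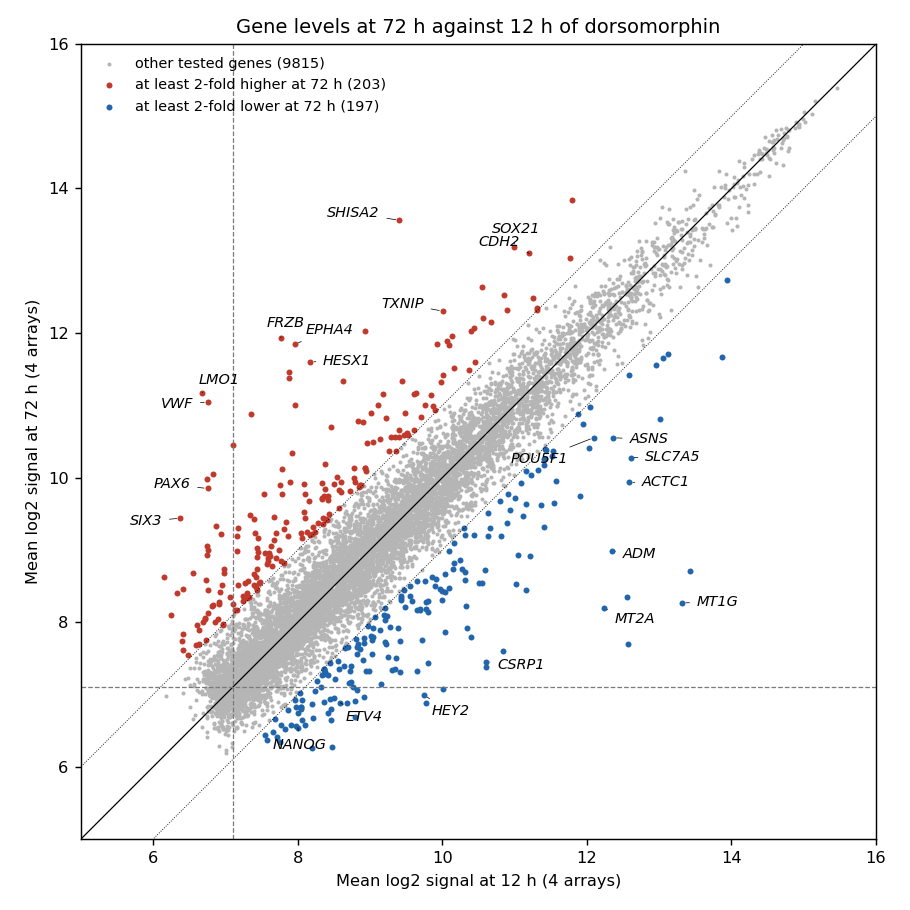
Mean log2 signal of each of the 10215 tested genes at 12 h (x axis) and at 72 h (y axis), 4 arrays each, with the 203 genes called and at least 2-fold higher in red and the 197 called and at least 2-fold lower in blue. The solid line marks equal levels, the dotted lines a 2-fold difference and the dashed lines the background of 7.10; LMO1 and VWF started below background at 12 h, and the metallothioneins MT1G and MT2A fell from among the brighter genes.

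Few of the genes that differed by at least 2-fold passed the midpoint of their change by 24 h and stayed past it. Of the 203 higher genes, 68 were not past the midpoint between their 12 h and 72 h means at 48 h. A further 96 were past it at 48 h but not at 36 h, 33 from 36 h on and 6 from 24 h on. TXNIP, which was past it at 24 h and 48 h but not at 36 h, counts with the 96. The 197 lower genes were spread in the same way, with 64, 91, 35 and 7. At 24 h the median higher gene had covered 12.8% of its change and the median lower gene 13.3%. At 48 h these figures were 61.9% and 64.3%. Among the higher genes 30 were under background on each of the 4 arrays of 12 h, and among the lower genes 31 lay below it on all 4 at 72 h.

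The arrays of 24 h and 48 h enter neither mean of the comparison and were set beside it, although they share its estimate of the spread and its filter on dim genes. Between 24 h and 48 h, 900 genes differed, 8.81% of those tested, 412 higher (4.03%) and 488 lower (4.78%). With only the 8 arrays of these times in the model the count was 613. The count of 900 ranged from 418 without replicate 4 at 48 h to 1176 when other single replicates were left out, and was 481 and 459 without replicates 3 and 4 at 24 h; leaving out replicate 1 at 48 h gave 498. Of the 412 higher genes 351 were also higher between 12 h and 72 h, which is 85.2% of the shorter list and 18.3% of the longer. Of the 488 lower genes 398 were also lower, 81.6% of the shorter list and 20.4% of the longer. Among the genes that differed by at least 2-fold, 196 of the 203 higher and 195 of the 197 lower moved the same way between 24 h and 48 h, and 116 and 122 of them passed the test there. Changes of at least 2-fold in that interval numbered 48 higher (0.470%) and 41 lower (0.401%).

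Fewer genes differed when 72 h was set against 24 h, a whole day. That comparison shares the 72 h arrays with the main one, so the values are only placed side by side. It gave 1527 higher genes (14.9%) and 1581 lower genes (15.5%), together 30.4%, of which 146 higher (1.43%) and 197 lower (1.93%) changed by at least 2-fold. A further contrast, added after the values were seen, set 36 h against the mean of 24 h and 48 h. Like 12 h, 36 h is not a whole number of days. A gene that changes mostly after 36 h also departs from that mean, as LMO1 did at -0.98 (adjusted p = 0.0178, limma). The contrast therefore cannot tell genes that alternate from genes with a late course. In it 485 genes were higher (4.75%) and 508 lower (4.97%). Of the 203 genes at least 2-fold higher at 72 h than at 12 h, 26 were lower at 36 h in this contrast and 4 higher, and of the 197 lower genes 21 were higher and 4 lower.

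Eye-field and forebrain factors had the largest share of rises among the lists with at least 8 tested genes. Of 12 tested members 11 rose, each by at least 2-fold, and none fell. The median change was 2.03 on the log2 scale against 0.00 for all genes tested. The lists were chosen with earlier results of these data known, so the rank of this list carries no weight as a test. SIX3, a homeobox factor that represses Wnt signals in the forebrain, read 6.25, 6.36, 6.19 and 6.69 on replicates 1 to 4 at 12 h and 9.87, 7.93, 9.93 and 10.02 at 72 h. All 4 arrays at 12 h lay below background and all 4 at 72 h above it, with replicate 2 at 72 h well below the other three. The measured difference was 3.06 ± 0.32 (SE; adjusted p = 4.38e-08), and SIX3 was at least 5.05-fold higher. HESX1, an anterior repressor needed for forebrain and pituitary, went from 8.35, 7.89, 7.70 and 8.75 to 11.83, 11.08, 11.78 and 11.71, a rise of 3.43 ± 0.32 (adjusted p = 1.16e-08). The groups were far apart, and the level had already reached 10.07 at 36 h.

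PAX6, the paired homeobox factor that sets human neuroectoderm and the eye, behaved as a late gene. It read 6.45, 6.73, 6.36 and 7.46 at 12 h and 10.43, 10.16, 9.58 and 9.23 at 72 h. Only replicate 4 at 12 h was above background, and all 4 arrays at 72 h were. PAX6 rose by 3.10 ± 0.27 (adjusted p = 2.5e-09), with means of 6.73 at 36 h and 7.06 at 48 h, so that nearly all of its rise fell in the last day. RAX, a retinal homeobox factor (2.32 ± 0.31), OTX1, a forebrain relative of OTX2 (2.13 ± 0.18), and EMX2, a cortical homeobox factor (1.50 ± 0.19), had the same late course, with means of 7.10, 6.92 and 6.93 at 48 h and 9.06, 8.68 and 8.42 at 72 h. OTX2 itself, which patterns forebrain and midbrain, rose earlier. Its arrays read 10.05, 9.58, 9.55 and 10.55 at 12 h and 11.59, 12.23, 11.51 and 12.06 at 72 h, a rise of 1.92 ± 0.30 (adjusted p = 1.78e-05), and its mean was already 11.65 at 48 h.

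LMO1, a LIM-only cofactor of transcription complexes and a member of the eye-field and forebrain list, had the largest rise of all tested genes. It read 6.36, 6.55, 6.95 and 6.85 at 12 h and 10.76, 11.40, 11.45 and 11.08 at 72 h. The 12 h arrays were all below background, so LMO1 was at least 16.8-fold higher at 72 h (measured difference 4.49 ± 0.29, adjusted p = 2.58e-11). FEZF1, a zinc finger repressor of forebrain progenitors, rose by 3.35 ± 0.36 and had exceeded background on 1 array at 12 h. LHX5, a LIM homeobox factor, rose by 1.85 ± 0.19 and had exceeded it on none. LHX2, a LIM homeobox factor of the eye field, stood at the edge of the test. Its arrays read 6.31, 6.51, 6.24 and 7.86 at 12 h against 8.63, 7.05, 7.57 and 7.76 at 72 h. The groups overlapped through replicate 4 at 12 h. The difference was 1.03 ± 0.41 with an adjusted p of 0.05. LHX2 no longer passed when replicate 1 (0.88), 2 (0.95) or 3 (0.86) of 12 h or replicate 1 (0.73), 3 (1.08) or 4 (1.02) of 72 h was left out, and the difference was 1.64 without the arrays low in CLEC2A. TCF7L2 (-0.19 ± 0.09, adjusted p = 0.109) did not pass, and 7 listed genes, SIX6 and FEZF2 among them, were too dim to test or not named on the array.

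Neural plate and neural stem cell genes were divided. Of 27 tested members 13 rose, 5 fell and 9 did not pass, with a median change of 0.28. SOX21, a SoxB factor of neural progenitors, read 11.21, 10.76, 10.79 and 11.21 at 12 h and 13.05, 13.30, 13.17 and 13.22 at 72 h. The arrays of each time were close together, and the rise was 2.20 ± 0.21 (4.58-fold; adjusted p = 1.63e-08). SOX2, shared by pluripotent cells and neural progenitors, rose by 0.87 ± 0.17 from 12.32 to 13.20. POU3F1, a POU factor of early neural commitment, rose by 2.42 ± 0.23. CDH2, the cadherin characteristic of neural epithelium, rose by 1.90 ± 0.20, from 10.94, 11.55, 11.05 and 11.26 to 13.36, 13.54, 12.63 and 12.88. CDH2 stood at 11.68 at 48 h, so most of its change also fell in the last day. MEIS2, a TALE homeobox cofactor, rose by 2.18 ± 0.12 at its brightest measurement and by 0.63 with the mean of its measurements.

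Markers that are often used for neural stem cells did not all follow. NES, the intermediate filament nestin, read 11.33, 11.59, 10.97 and 11.61 at 12 h and 10.28, 10.76, 10.51 and 10.68 at 72 h. Every array at 72 h lay below every array at 12 h, a fall of 0.82 ± 0.15 (adjusted p = 0.000125), and the mean at 0 h had been 10.51. VIM, the filament vimentin, fell by 0.50 ± 0.13 and GPM6B, a membrane glycoprotein of the nervous system, by 0.88 ± 0.12. SOX1, an early marker of definitive neuroectoderm, was above background on 0 of 24 arrays and was not tested. Of the 10 neural plate markers 8 rose, NES fell and SOX1 was dim throughout.

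**Figure D2:**
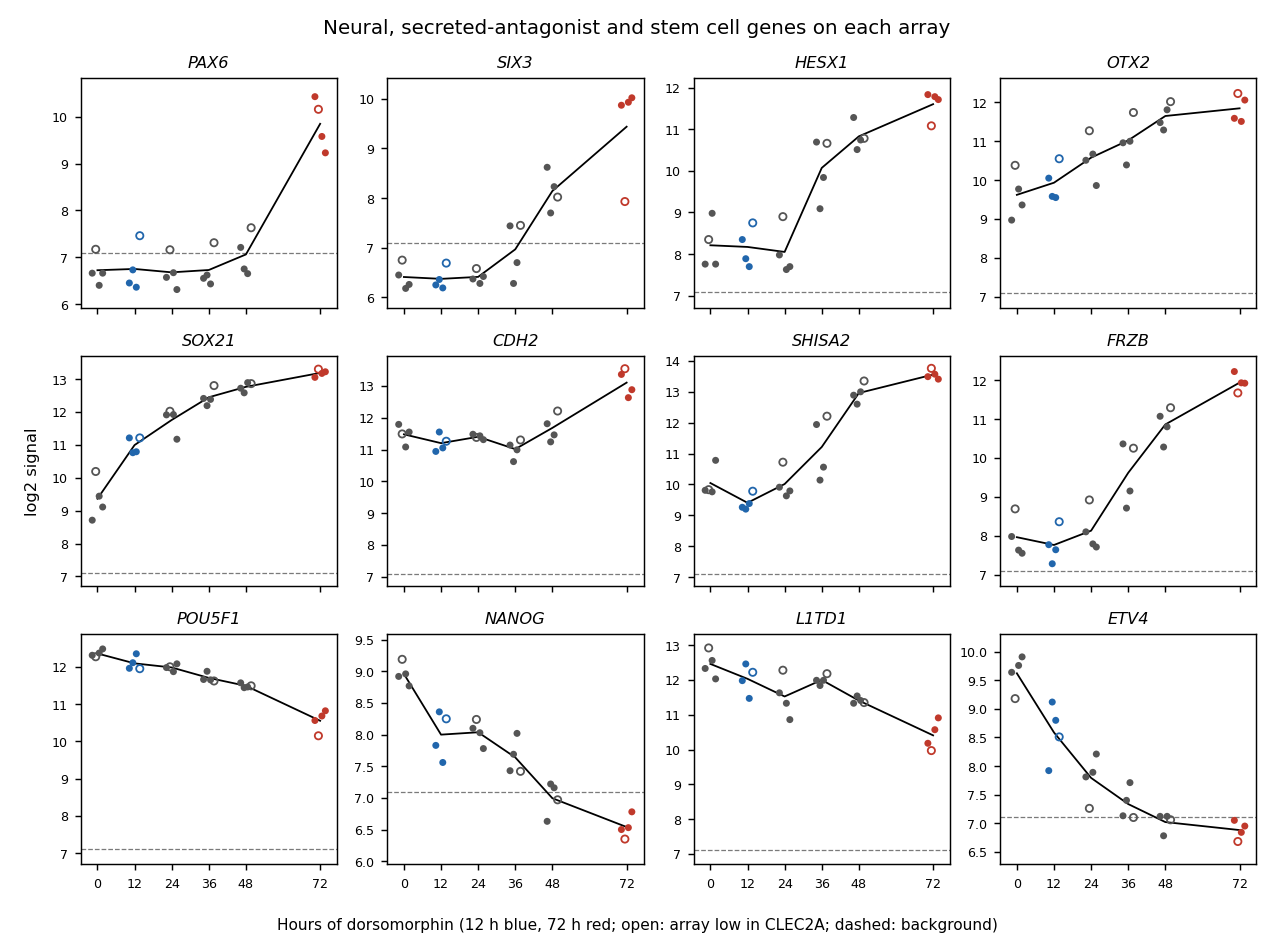
Log2 signal on each of the 24 arrays (points) and the mean of each time (line) against hours of dorsomorphin for 12 genes, with 12 h in blue, 72 h in red, open points for the 6 arrays low in CLEC2A and the background of 7.10 dashed. PAX6 and CDH2 rose mainly after 48 h, SOX21 and SHISA2 had made most of their rise by 48 h, and NANOG and ETV4 ended below background.

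Neuronal genes were mostly unchanged or too dim. Of 10 tested members 4 rose and 1 fell. STMN2, a microtubule regulator of growing neurites, rose by 1.21 ± 0.26 (adjusted p = 0.000810), although its replicate 2 at 72 h (8.85) lay within the 12 h range of 8.13 to 8.98. MAP2, a dendritic microtubule protein, rose by 0.85 ± 0.14. CNTN2, an adhesion molecule of early axons, read 7.01, 6.92, 7.09 and 6.90 at 12 h and 8.80, 10.50, 7.50 and 8.13 at 72 h. Its rise of 1.75 ± 0.34 rested in large part on replicate 2 at 72 h and was 1.16 without it. DCX (-0.06 ± 0.12, adjusted p = 0.717), the doublecortin of migrating neurons, did not pass, and ELAVL3 and ELAVL4 were too dim to test.

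Secreted antagonists of Wnt and their relatives were among the largest rises. Of 13 tested Wnt targets and antagonists 7 rose, 6 of them by at least 2-fold, and 1 fell. FRZB, a secreted frizzled-related protein that binds Wnt ligands, read 7.77, 7.28, 7.64 and 8.36 at 12 h and 12.22, 11.67, 11.93 and 11.92 at 72 h. It rose by 4.17 ± 0.32 (adjusted p = 4.61e-10), and its groups were far apart. SHISA2, which keeps Wnt and FGF receptors inside the cell, went from 9.26, 9.20, 9.38 and 9.78 to 13.49, 13.76, 13.57 and 13.41. It rose by 4.15 ± 0.32 (17.8-fold), and its mean of 13.56 at 72 h followed one of 12.96 at 48 h. SFRP2, a further frizzled-related protein, rose by 1.40 ± 0.31 and had been as high at 0 h (11.38) as at 72 h (11.41).

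Targets of the pathway moved both ways. TNFRSF19, a receptor induced by Wnt, rose by 3.58 ± 0.30, or by 1.92 with the mean of its measurements. LEF1, the transcription factor that carries Wnt output, read 6.98, 6.81, 6.92 and 7.10 at 12 h and 8.63, 8.82, 8.25 and 8.36 at 72 h. LEF1 rose by 1.56 ± 0.20 (adjusted p = 1.58e-06). SP5, a direct target, read 6.16 to 6.29 at 12 h, under background, and was at least 1.99-fold higher at 72 h. AXIN2, the feedback inhibitor most used as a readout of the pathway, fell by 0.73 ± 0.18 (adjusted p = 0.00232). Its replicate 2 at 72 h, at 10.25, lay within the 12 h range of 10.17 to 10.61, and the other three arrays read 9.43 to 9.46.

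Among BMP pathway genes rises outnumbered falls. Of 16 tested members 8 rose, 1 fell and 7 did not pass, with a median change of 0.45. ID2, an inhibitor of bHLH factors and a direct BMP target, read 9.44, 8.90, 9.76 and 9.81 at 12 h and 10.75, 11.10, 10.98 and 10.74 at 72 h, a rise of 1.42 ± 0.17 (adjusted p = 5.63e-07). ID3, of the same family, rose by 1.35 ± 0.23, from 10.21, 10.53, 9.32 and 10.60 to 11.40, 11.77, 11.51 and 11.37. Both sets of arrays were separate, and the 72 h mean of ID3, 11.51, was close to its 0 h mean of 11.71. SMAD6, an inhibitory SMAD, rose by 1.35 ± 0.13, and DLX5, a homeobox gene of the border and ventral forebrain, was at least 2.47-fold higher. FST, the activin and BMP binder follistatin, went from 8.82, 8.34, 8.63 and 9.90 to 12.21, 12.28, 11.73 and 11.89 (3.10 ± 0.42, adjusted p = 2.67e-06). The pseudoreceptor BAMBI fell by 1.31 ± 0.27. ID1 lay above background on 2 of 24 arrays, ID4 on 1 and the ligand BMP4 on 2, so none of them was tested.

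Several further genes with large rises belong to adhesion and signalling. EPHA4, an ephrin receptor that separates cell groups and guides axons, read 8.05, 7.67, 7.84 and 8.26 at 12 h and 12.14, 11.67, 11.89 and 11.67 at 72 h, a rise of 3.89 ± 0.28 (14.8-fold; adjusted p = 1.73e-10). VWF, the clotting factor carrier known from endothelium, read 6.62 to 6.86 at 12 h, under background throughout, and 11.21, 11.44, 11.15 and 10.37 at 72 h. VWF was at least 15.4-fold higher. MAPK10, the neuronal JNK3 kinase, rose by 3.52 ± 0.19 at its brightest measurement and by 1.82 with the mean of its measurements. PKDCC, a secreted tyrosine kinase, rose by 3.51 ± 0.32 and differed from the rest in being early, with means of 9.01 at 24 h and 11.47 at 48 h against 11.38 at 72 h. FLRT3, an adhesion protein that binds FGF receptors and unc5 receptors, rose by 3.22 ± 0.27.

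DLK1, an imprinted relative of the Notch ligands, read 6.37, 6.47, 6.34 and 7.80 at 12 h and 10.28, 10.59, 9.69 and 9.34 at 72 h. It rose by 3.23 ± 0.36, and only replicate 4 at 12 h was above background. Of 13 tested imprinted genes 6 rose and none fell. NNAT, the brain proteolipid neuronatin, rose by 2.04 ± 0.19 to a mean of 13.84, and MEG3, a noncoding RNA made from the DLK1 locus on the other parental chromosome, was at least 1.73-fold higher. Of the 15 largest rises 13 had their highest 12 h reading on replicate 4, which is the array low in CLEC2A at that time. Without the 6 such arrays the changes of LMO1, SIX3, HESX1, PAX6 and DLK1 were 4.47, 3.67, 3.80, 3.23 and 3.38.

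**Figure D3:**
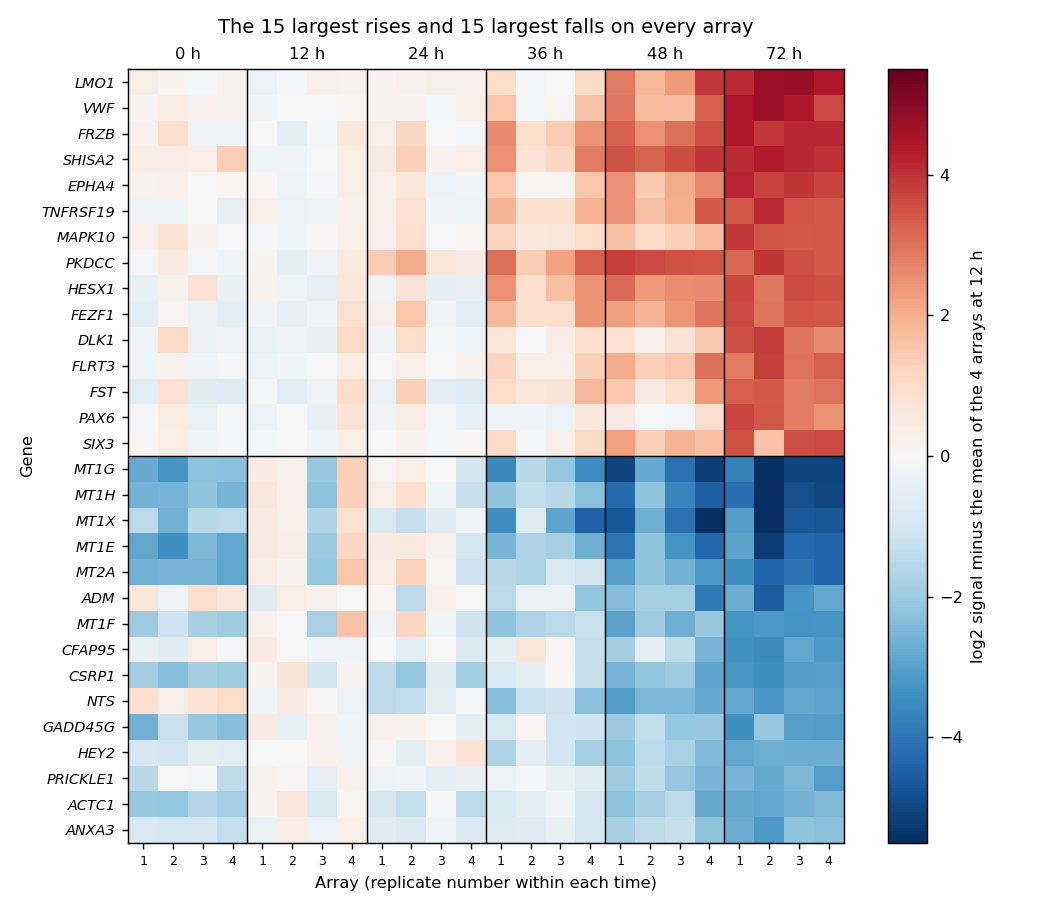
Log2 signal on each of the 24 arrays minus the mean of the 4 arrays at 12 h, for the 15 largest rises (upper rows) and the 15 largest falls (lower rows), with columns grouped by time and numbered by replicate. Colour runs from blue (lower than at 12 h) to red (higher); replicate 3 at 12 h is pale blue in the metallothionein rows, and at 36 h and 48 h replicates 1 and 4 are the reddest for LMO1, VWF and EPHA4.

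Genes of the pluripotency network fell. Of 26 tested members 19 fell, 7 of them by at least 2-fold, 2 rose and 5 did not pass, with a median change of -0.63. POU5F1, the core factor OCT4, read 11.96, 12.11, 12.35 and 11.95 at 12 h and 10.56, 10.15, 10.68 and 10.82 at 72 h. All arrays at 72 h were lower, by 1.54 ± 0.11 on average (2.92-fold; adjusted p = 1.89e-10), yet the gene remained bright. With the mean of its measurements the fall was 0.87, since a second measurement stood at -0.20. NANOG, its partner, went from 7.83, 8.36, 7.56 and 8.25 to below background on all 4 arrays and was at least 1.87-fold lower.

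POLR3G, the stem cell form of an RNA polymerase III subunit, fell by 1.90 ± 0.17, L1TD1, which binds RNA in stem cells, by 1.62 ± 0.24, and FOXO1, a forkhead factor active in human embryonic stem cells, by 1.62 ± 0.14. FOXO1 was level until 48 h, with means of 10.31 at 12 h and 9.98 at 48 h, and dropped to 8.69 at 72 h. The exceptions were SALL4, a zinc finger factor, which rose by 0.91 ± 0.19, and LIN28A, which blocks let-7 maturation, which rose by 0.49 ± 0.09. LIN28A read 13.39 to 13.64 at 12 h and 13.92 to 14.01 at 72 h, so a well-known stem cell gene ended as one of the brightest signals. DNMT3B, the de novo methyltransferase of stem cells, stood at -0.38 ± 0.19 (adjusted p = 0.127). It passed when replicate 4 at 72 h was left out (-0.53, adjusted p = 0.0381) and with only replicates 1 and 2 (-0.69, adjusted p = 0.0385).

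Most FGF and ERK target genes fell. Of 16 tested members 12 fell, 5 of them by at least 2-fold, and 1 rose, with a median change of -0.58. ETV4, an ETS factor induced by FGF, read 7.92, 9.12, 8.80 and 8.51 at 12 h and 6.68 to 7.05 at 72 h, where no array reached background. It was at least 2.81-fold lower, and its means ran from 9.62 at 0 h through 8.59 at 12 h to 7.02 at 48 h. SPRY4, a feedback inhibitor of ERK, was at least 2.49-fold lower and ETV5 at least 1.82-fold lower. DUSP6, the ERK phosphatase, read 6.83, 8.86, 7.53 and 7.99 at 12 h and 6.86, 7.14, 6.95 and 7.03 at 72 h. The groups overlapped. Its difference of -0.81 ± 0.26 (adjusted p = 0.0170) was -0.45 (0.116) without replicate 2 at 12 h. CCND1, the cyclin D1 that drives entry into the cell cycle, was the member that rose, by 0.61 ± 0.13.

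FGF2, a ligand made by the cells themselves, fell by 0.63 ± 0.16. FGFR3, an FGF receptor of neural progenitors, rose by 1.12 ± 0.18 at its brightest measurement and by 0.63 with the mean of its measurements. FGF8, a ligand of the anterior neural ridge and the midbrain boundary, read 6.31 to 6.54 at 12 h and 7.01 to 7.36 at 72 h, a rise of 0.78 ± 0.13 to a level barely above background. Set to the background where below it, FGF8 stood at 0.14 (adjusted p = 0.126).

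Nodal and Activin genes leaned downwards, with 6 of 15 tested members lower and 1 higher at a median change of -0.04. CRIPTO, the Nodal coreceptor, was at least 1.21-fold lower and fell by 0.78 ± 0.14, or by 0.36 with the mean of its measurements. With values below background set to it, the fall of CRIPTO was 0.28 (adjusted p = 0.0516). The antagonist LEFTY2 did not pass (0.12 ± 0.12, adjusted p = 0.474), and NODAL and LEFTY1 were too dim to test. The member with the largest fall was NTS, the neuropeptide precursor neurotensin, described with the other peptides.

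Notch pathway genes rose in 8 of 15 and fell in 2. HEY2, a transcriptional repressor downstream of Notch and of BMP, was the exception by size. It read 9.75, 9.73, 9.96 and 9.54 at 12 h and 6.88, 7.05, 7.02 and 7.01 at 72 h. With tight groups and all 72 h arrays below background, HEY2 was at least 6.25-fold lower (measured difference -2.76 ± 0.24, adjusted p = 3.88e-09). HES1, the classical Notch target of progenitors, rose by 0.93 ± 0.13, HEYL by 0.75 ± 0.12 and MFNG, which adds sugar to Notch receptors, by 1.01 ± 0.16. Against 24 h, 4 members were higher and 2 lower.

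Hedgehog and retinoic acid genes included several separate groups of arrays. Of 6 tested Hedgehog genes 4 rose and none fell. GLI3, the repressor form of which patterns the dorsal forebrain, rose by 1.54 ± 0.17, from 7.61, 7.73, 7.55 and 7.89 to 9.36, 9.56, 8.87 and 9.13. The coreceptor GAS1 rose by 1.20 ± 0.22 and the receptor PTCH1 was at least 1.30-fold higher, while the ligand SHH was too dim to test. ALDH1A2, which makes retinoic acid, rose by 1.70 ± 0.17, with means of 7.15 at 48 h and 8.68 at 72 h. The receptor RXRA rose by 0.98 ± 0.09. DHRS3, which turns retinal back to retinol and is induced by retinoic acid, fell by 1.56 ± 0.20. Of all 10 tested retinoic acid genes 3 rose and 4 fell.

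**Figure D4:**
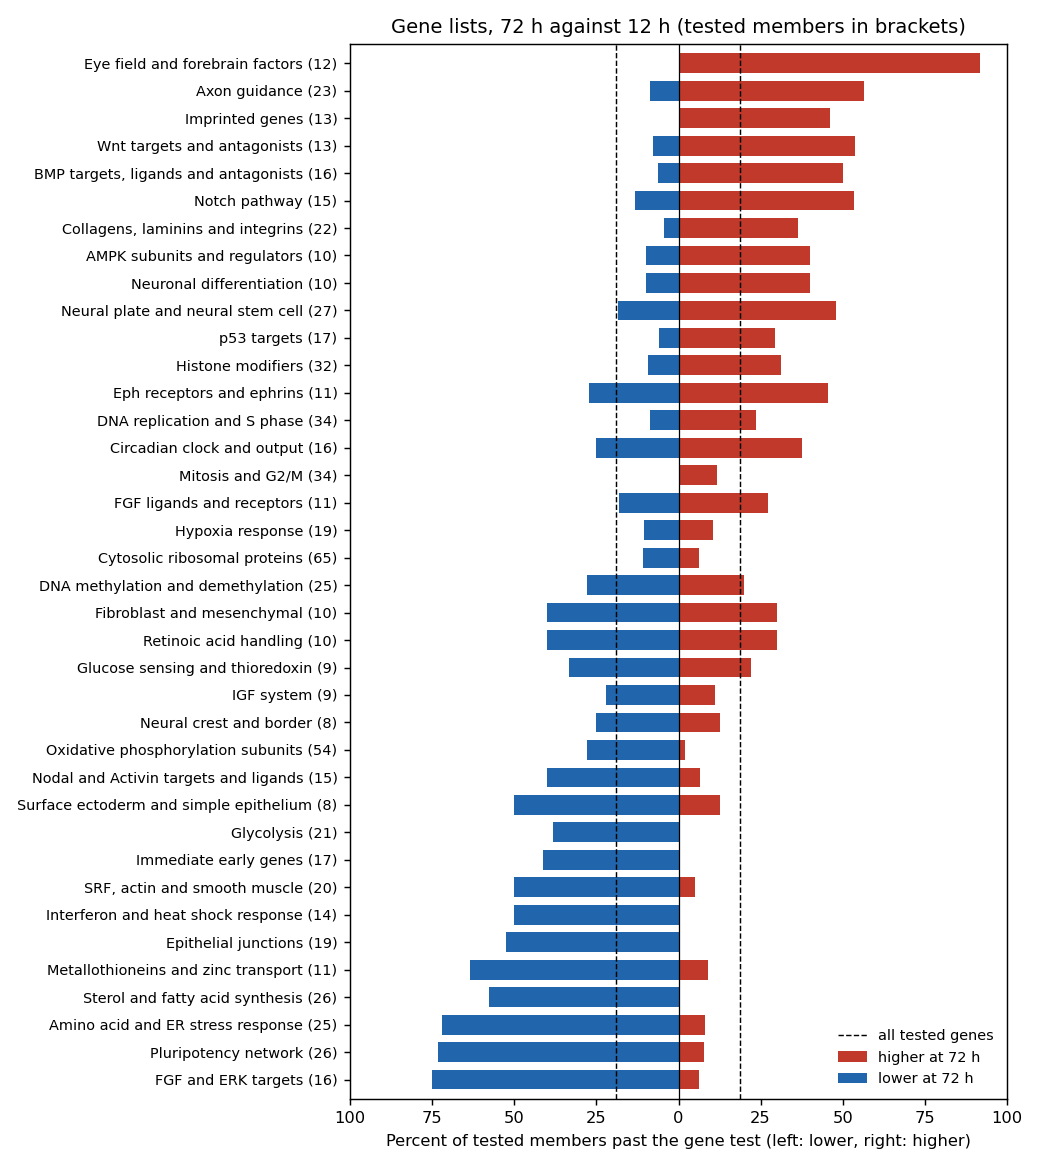
Percent of the tested members of each gene list with at least 8 tested genes that were lower (blue, left) or higher (red, right) at 72 h than at 12 h, with the number of tested members in brackets. Dashed lines mark the shares among all tested genes, 19.1% lower and 18.7% higher; eye-field and forebrain factors reach 91.7% higher, and FGF and ERK targets 75% lower.

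Metallothioneins had the largest falls of all. These small cysteine-rich proteins bind zinc and copper, and their genes are switched on through metal response elements by the zinc-sensing factor MTF1. Of 11 tested genes of metallothioneins and zinc transport 7 fell, all 7 of them metallothioneins and each by at least 2-fold, and 1 rose, with a median change of -3.25. The human metallothionein genes lie next to each other on chromosome 16 and are nearly alike in sequence, so their probes may read each other's transcripts and the members are not independent. The promoters of 3 of the genes with the largest falls are shown because they carry many metal response elements, which were searched for as TGCACNC or TGCGCNC on both strands and are in capitals. The sequences are RefSeq's for build GRCh38.p14, around each gene start, in the gene's 5′ to 3′ direction.
MT1H promoter, chr16:56669564-56669863, plus strand: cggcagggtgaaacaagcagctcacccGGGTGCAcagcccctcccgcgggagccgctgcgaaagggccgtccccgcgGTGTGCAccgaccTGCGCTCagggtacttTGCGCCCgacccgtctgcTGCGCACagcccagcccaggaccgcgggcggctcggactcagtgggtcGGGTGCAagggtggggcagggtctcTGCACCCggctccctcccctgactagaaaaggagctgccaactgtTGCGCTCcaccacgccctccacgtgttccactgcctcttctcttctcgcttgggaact
MT2A promoter, chr16:56608334-56608633, plus strand: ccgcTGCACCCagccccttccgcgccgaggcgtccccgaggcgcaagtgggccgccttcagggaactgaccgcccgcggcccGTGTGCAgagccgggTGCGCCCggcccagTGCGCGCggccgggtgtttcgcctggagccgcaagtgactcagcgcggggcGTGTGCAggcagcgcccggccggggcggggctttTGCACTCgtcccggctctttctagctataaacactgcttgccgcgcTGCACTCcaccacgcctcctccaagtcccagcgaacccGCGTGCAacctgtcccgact
MT1X promoter, chr16:56682220-56682519, plus strand: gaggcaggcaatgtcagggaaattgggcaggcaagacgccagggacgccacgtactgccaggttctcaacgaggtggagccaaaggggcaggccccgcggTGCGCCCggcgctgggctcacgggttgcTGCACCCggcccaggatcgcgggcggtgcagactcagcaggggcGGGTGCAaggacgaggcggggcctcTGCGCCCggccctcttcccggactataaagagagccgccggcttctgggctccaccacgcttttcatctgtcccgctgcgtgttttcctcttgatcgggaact

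MT1H and MT2A each held 8 matches and MT1X held 4. A match is frequent, present in 29.3% of 27305 promoters of this length and in 39.4% of the 8406 that belong to tested genes. MT1G, MT1E, MT1F and MT1M are named only. The zinc exporter gene SLC30A1 also had 2 matches but stood at -0.10 ± 0.14 (adjusted p = 0.607).

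MT1G read 13.76, 13.66, 11.22 and 14.63 at 12 h and 9.62, 6.90, 8.25 and 8.29 at 72 h. The groups did not overlap, although each was wide, and the fall of 5.05 ± 0.61 on the log2 scale was 33.2-fold (adjusted p = 4.53e-07). MT2A, the most widely expressed member, read 12.66, 12.43, 10.09 and 13.75 at 12 h and 8.88, 7.84, 8.17 and 7.88 at 72 h. MT2A fell by 4.04 ± 0.49. Replicate 3 at 12 h was the lowest and replicate 4 the highest in both genes, and the same held for MT1H, MT1X, MT1E and MT1F. At 72 h replicate 2, low in CLEC2A, was the lowest for MT1G, MT1H, MT1X, MT1E and MT2A. MT1H fell by 4.88 ± 0.55, MT1X fell by 4.72 ± 0.70 and MT1F fell by 3.25 ± 0.45. MT1E fell by 4.20 ± 0.53, or by 2.10 with the mean of its measurements. MT1M fell by 1.93 ± 0.56 (adjusted p = 0.00811), and by 1.30 (adjusted p = 0.0538) without replicate 4 at 12 h.

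In the means, the fall was from a temporary high. For MT1G, replicate 3 at 12 h (11.22) was barely above the 0 h arrays, which read 10.07 to 11.07. All 72 h arrays of MT1G, at 9.62 or less, lay below those of 0 h. MT1G had a mean of 10.67 ± 0.47 (SD, n = 4) at 0 h, 13.32 ± 1.46 at 12 h, 13.18 ± 0.60 at 24 h, 10.66 ± 0.98 at 36 h, 9.06 ± 1.11 at 48 h and 8.27 ± 1.11 at 72 h. Between 24 h and 48 h, in the same model, MT1G fell by 4.12 ± 0.61 (adjusted p = 0.000108). Without the 6 arrays low in CLEC2A the changes of MT1G and MT2A between 12 h and 72 h were -4.16 and -3.42. MTF1 itself was the member that rose, by 0.25 ± 0.09 (adjusted p = 0.0335). MTF1 did not pass when replicate 1, 2 or 3 of 12 h, replicate 1 or 2 of 72 h or the arrays low in CLEC2A were left out, with changes of 0.18 to 0.25.

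**Figure D5:**
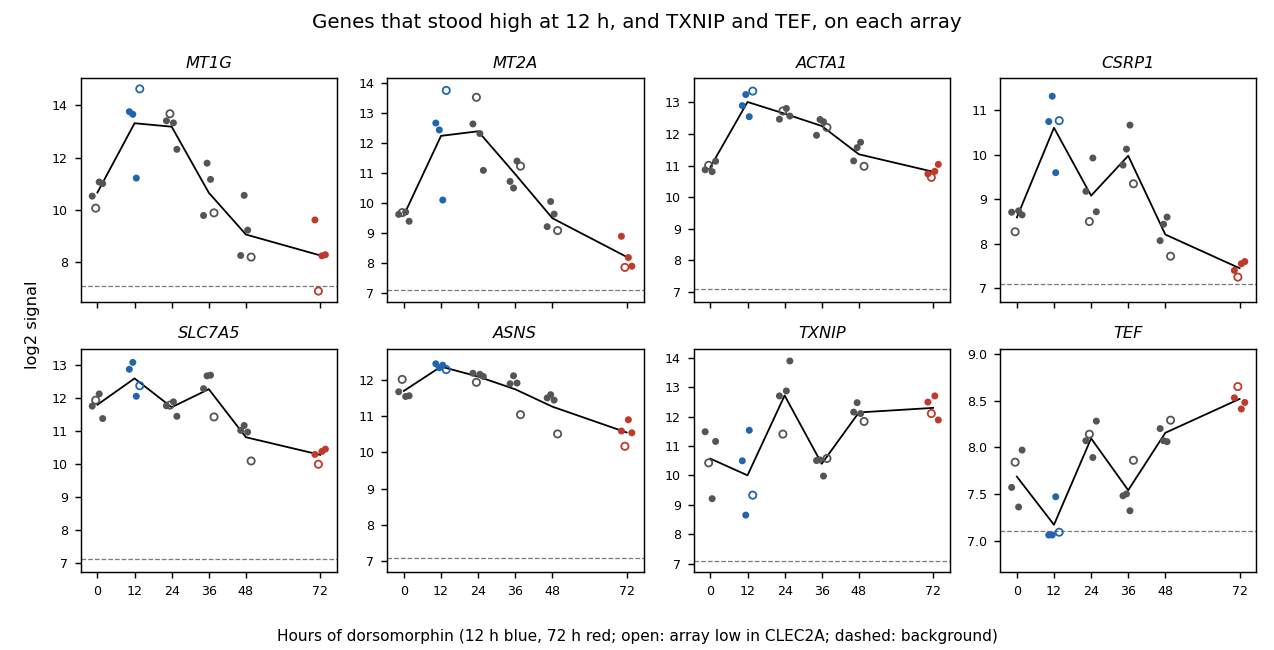
Log2 signal on each of the 24 arrays (points) and the mean of each time (line) against hours of dorsomorphin for 8 genes, with 12 h in blue, 72 h in red, open points for the 6 arrays low in CLEC2A and the background of 7.10 dashed. MT1G, MT2A and ACTA1 peaked at 12 h or 24 h and then declined, CSRP1 and SLC7A5 were higher at 12 h and 36 h than at 24 h and 48 h, and TXNIP and TEF were lower at 12 h and 36 h.

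Several muscle actins and other targets of serum response factor fell. Serum response factor, with cofactors that sense free actin, drives actin and contractile genes through a sequence called the CArG box. Of 20 tested genes 10 fell, 6 of them by at least 2-fold, 1 rose and 9 did not pass, with a median change of -0.53. ACTA1, the skeletal actin gene, read 12.90, 13.25, 12.55 and 13.36 at 12 h and 10.74, 10.63, 10.82 and 11.04 at 72 h. The groups were well apart, and the fall was 2.21 ± 0.16 (4.62-fold; adjusted p = 2.17e-10). ACTC1, the cardiac actin gene, fell by 2.66 ± 0.28, from 12.72, 13.22, 11.77 and 12.64 to 9.83, 9.74, 9.99 and 10.17. ACTG2, the enteric smooth muscle actin, fell by 2.30 ± 0.19, TAGLN, the actin binder transgelin, by 2.21 ± 0.25 and CNN1, calponin, by 2.00 ± 0.17. At 0 h the means of ACTA1 and ACTC1 were 10.96 and 10.68, against 10.81 and 9.93 at 72 h. For ACTA1 the arrays of these times overlapped. For ACTC1 those of 0 h, at 10.47 to 10.98, all lay above those of 72 h.

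The promoters of ACTA1 and ACTC1 are shown with their CArG boxes in capitals.
ACTA1 promoter, chr1:229434045-229434344, minus strand: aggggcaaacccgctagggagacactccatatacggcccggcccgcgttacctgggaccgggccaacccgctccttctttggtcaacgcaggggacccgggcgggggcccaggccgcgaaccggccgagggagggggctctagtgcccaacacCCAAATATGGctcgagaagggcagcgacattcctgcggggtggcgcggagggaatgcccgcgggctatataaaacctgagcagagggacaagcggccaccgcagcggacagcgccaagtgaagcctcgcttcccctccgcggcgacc
ACTC1 promoter, chr15:34795500-34795799, minus strand: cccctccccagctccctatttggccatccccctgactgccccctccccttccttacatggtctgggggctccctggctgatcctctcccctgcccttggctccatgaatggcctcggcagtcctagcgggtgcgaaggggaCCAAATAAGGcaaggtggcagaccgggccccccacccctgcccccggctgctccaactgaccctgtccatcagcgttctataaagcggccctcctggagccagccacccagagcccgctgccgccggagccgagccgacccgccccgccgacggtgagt

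A CArG box was found in 7 of 16 promoters of the list, those of ACTA1, ACTC1 and ACTG2 among them, and in 1.29% of all 27305 promoters. The share among tested genes was 1.18%. The other members with a box changed less, with ACTG1 at -0.08, TPM4 at -0.11, SRF at -0.28 and CNN2 at -0.45. Among members without a box, CNN1 fell, and VCL stood at -1.20, CALD1 at -0.92, ZYX at -0.91 and CCN2 at -0.57. TPM2 (-0.18), TPM1 (0.18) and ANKRD1 (0.26) had no box either. Whether the box goes with the size of the fall was not tested. ACTA2, the vascular smooth muscle actin, has none in this window and stood at 0.86 ± 0.31 (adjusted p = 0.0272). ACTA2 did not pass when replicate 2 (0.61) or 3 (0.79) of 12 h or replicate 2 of 72 h (0.79) was left out. Actin genes resemble each other, so their probes may share signal.

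CSRP1, a LIM protein of the actin cytoskeleton, was among the largest falls. It read 10.75, 11.32, 9.60 and 10.77 at 12 h and 7.40, 7.25, 7.55 and 7.60 at 72 h, a fall of 3.16 ± 0.30 (8.93-fold; adjusted p = 1.27e-08). Its course went up and down, with means of 8.59 at 0 h, 10.61 at 12 h, 9.08 at 24 h, 9.98 at 36 h and 8.21 at 48 h. At 36 h it stood 1.33 above the mean of 24 h and 48 h (adjusted p = 0.00421), and against 24 h its fall to 72 h was 1.63 ± 0.30 (adjusted p = 0.000176). ACTC1 and CNN1 stood 0.90 and 0.75 above the mean of 24 h and 48 h at 36 h. For ACTC1 the arrays of 24 h (11.12 to 12.48) and 36 h (11.61 to 12.43) overlapped, and those of 48 h were lower (9.83 to 11.09). Markers of fibroblasts and smooth muscle, 6 genes, moved both ways. TAGLN fell, ACTA2 rose, COL1A1 (-0.57 ± 0.24, adjusted p = 0.0607) and COL1A2 did not pass and COL3A1 and DCN were below background on all 24 arrays. COL1A1 passed with the arrays low in CLEC2A as a block (adjusted p = 0.00569), with the replicate number as a block (0.0345) and when replicate 4 of 12 h or replicate 3 or 4 of 72 h was left out. The mean log2 signal of the set ranged from 9.33 to 9.78 over the 12 h arrays and from 8.94 to 9.43 over the 72 h arrays.

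Genes of the amino acid response fell as a group. When amino acids run short or proteins misfold, the factor ATF4 raises genes for amino acid import and synthesis through a composite element whose core resembles TGATGNAA. Of 25 tested genes 18 fell, 8 of them by at least 2-fold, and 2 rose, with a median change of -0.50. SLC7A5, a transporter of large neutral amino acids, read 12.88, 13.09, 12.06 and 12.38 at 12 h and 10.29, 9.99, 10.38 and 10.45 at 72 h. It fell by 2.33 ± 0.25 (5.02-fold; adjusted p = 8.06e-08), and its partner chain SLC3A2 by 1.24 ± 0.17. ASNS, asparagine synthetase, had tight groups, 12.44, 12.33, 12.40 and 12.28 at 12 h against 10.59, 10.17, 10.90 and 10.54 at 72 h, and fell by 1.81 ± 0.20 (adjusted p = 1.56e-07). ATF5, a related transcription factor, fell by 1.51 ± 0.22 but stood at -0.45 (adjusted p = 0.121) against 24 h. The 2 rises were the endoplasmic reticulum chaperone genes HSPA5, by 0.48 ± 0.12, and DNAJB9, by 0.70 ± 0.11, which belong to the unfolded protein branch of the list. The ASNS promoter is shown with its match to the element in capitals.
ASNS promoter, chr7:97872359-97872658, minus strand: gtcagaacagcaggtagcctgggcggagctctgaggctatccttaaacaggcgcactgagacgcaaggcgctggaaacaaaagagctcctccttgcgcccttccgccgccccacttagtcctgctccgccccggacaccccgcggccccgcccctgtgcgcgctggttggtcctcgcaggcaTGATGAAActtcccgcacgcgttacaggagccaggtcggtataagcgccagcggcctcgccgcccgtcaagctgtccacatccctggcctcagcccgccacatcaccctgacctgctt

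The element was found in 5 of 22 promoters of the list, against 3.67% of all promoters and 1.63% of those of tested genes. SLC7A5 and ATF5 had no match in this window. SLC7A5 was also 1.01 higher at 36 h than at the mean of 24 h and 48 h (adjusted p = 0.00666), and ASNS differed by 0.06 there.

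Lipid and sugar metabolism moved the same way with smaller steps. Of 26 tested genes of sterol and fatty acid synthesis 15 fell and none rose, with a median change of -0.50. ELOVL6, a fatty acid elongase, fell by 1.16 ± 0.12, HMGCS1, the first committed enzyme of sterol synthesis, by 1.07 ± 0.22 and FASN, which builds fatty acids, by 0.79 ± 0.14. Much of this depended on the time used as the start, since against 24 h only 6 of the 26 were lower, none was higher and the median was -0.20. Of 21 glycolysis genes none rose and 8 fell, ALDOC, the brain aldolase, by 1.16 ± 0.19 and PKM, pyruvate kinase, by 0.77 ± 0.19. In the hypoxia list 2 of 19 rose and 2 fell, below the share among all genes. One of them, ADM, the peptide hormone adrenomedullin, was nevertheless among the largest falls, from 11.69, 12.72, 12.60 and 12.38 to 9.62, 7.77, 9.09 and 9.47 (-3.36 ± 0.46, adjusted p = 3.19e-06).

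Of 9 tested genes of glucose sensing and thioredoxin 2 rose (22.2%) and 3 fell (33.3%), with a median change of -0.13. TXN (-0.42), MLX (-0.47) and HK2 (-0.50) were the members that fell. The 2 that rose, TXNIP and ARRDC4, are arrestin-like brakes on glucose uptake that rise with glucose through carbohydrate response elements. TXNIP read 10.50, 8.65, 11.54 and 9.33 at 12 h and 12.50, 12.11, 12.71 and 11.89 at 72 h, a rise of 2.30 ± 0.49 (4.91-fold; adjusted p = 0.000604). The arrays at 12 h were scattered and those at 72 h were not, and the groups did not overlap. Against 24 h, however, TXNIP stood at -0.42 (adjusted p = 0.556). Its means were 10.57 at 0 h, 10.01 at 12 h, 12.73 at 24 h, 10.40 at 36 h, 12.15 at 48 h and 12.30 at 72 h. ARRDC4 rose by 0.99 ± 0.24 and likewise stood at -0.21 against 24 h. At 36 h TXNIP was 2.03 and ARRDC4 1.08 below the mean of 24 h and 48 h (adjusted p = 0.00555 and 0.00398). The TXNIP promoter is shown with its match to the form of the element searched, CACGNG and CNCGNG with 5 bases between them on either strand, in capitals.
TXNIP promoter, chr1:145996530-145996829, minus strand: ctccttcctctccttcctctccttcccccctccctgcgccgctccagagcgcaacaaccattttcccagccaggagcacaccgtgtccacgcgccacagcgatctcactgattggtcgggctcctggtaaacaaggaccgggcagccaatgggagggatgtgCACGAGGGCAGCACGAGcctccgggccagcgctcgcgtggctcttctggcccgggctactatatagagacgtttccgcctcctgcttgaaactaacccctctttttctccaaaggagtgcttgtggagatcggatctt

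This form was present in 1 of the 9 promoters of the glucose list and in 0.524% of all promoters. ARRDC4 had no match in its window.

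Clock genes changed in both directions. Of 16 tested members 6 rose and 4 fell. TEF, a transcription factor driven by the clock, read 7.06, 7.06, 7.47 and 7.09 at 12 h and 8.53, 8.65, 8.41 and 8.48 at 72 h, a rise of 1.35 ± 0.13 (adjusted p = 1.23e-08). PER3 rose by 0.80 ± 0.11, NR1D2 by 0.62 ± 0.10 and PER2 by 0.73 ± 0.13, or 0.28 with the mean of its measurements. At 36 h TEF, PER3 and PER2 stood at -0.58, -0.51 and -0.46 against the mean of 24 h and 48 h and passed the test there, whereas NR1D2 did not (-0.21, adjusted p = 0.130). BMAL1, the activator that drives them, was at least 1.39-fold lower at 72 h. DBP (0.28 ± 0.11, adjusted p = 0.0560) and NR1D1 (-0.05 ± 0.11, adjusted p = 0.756) did not pass. DBP passed with the replicate number as a block (adjusted p = 0.0395), with the arrays low in CLEC2A as a block (0.0440), with array weights (0.0151) and without replicate 3 at 12 h or replicate 2 at 72 h. PER1 was too dim to test.

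Enzymes of DNA methylation changed little as a class. Of 25 tested genes of methylation and demethylation 5 rose and 7 fell, 20% and 28%, near the shares among all genes. TET1, a dioxygenase that oxidises methylcytosine, read 8.85, 8.81, 9.35 and 8.82 at 12 h and 9.83, 9.58, 9.75 and 9.75 at 72 h, a rise of 0.77 ± 0.12 (adjusted p = 1.44e-05). UHRF1, which brings DNMT1 to replicating DNA, rose by 0.90 ± 0.17. DNMT1 (0.09 ± 0.11, adjusted p = 0.547) and DNMT3A (-0.35 ± 0.14, adjusted p = 0.0584) did not pass, although DNMT3A did with the arrays low in CLEC2A as a block (0.0456), with only the 8 arrays compared (0.0477), with array weights (0.0333) and without replicate 3 at 12 h (0.0182). The larger changes were in stress and repair genes of the list. GADD45G fell by 2.90 ± 0.29, from 10.21, 9.33, 10.01 and 9.54 to 6.38, 7.69, 6.76 and 6.68, whereas its relative GADD45A rose by 1.10 ± 0.16. APOBEC3B, a cytidine deaminase, fell by 1.97 ± 0.24. Histone modifiers rose in 10 of 32 and fell in 3, none by 2-fold, and without the arrays low in CLEC2A these counts were 5 and 2.

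Neuropeptides and proteins of secretory granules were grouped after their values had been seen, so their count carries no weight as a test. Of 17 tested genes 11 were lower and 4 higher. NTS, neurotensin, read 9.81, 10.45, 10.09 and 9.69 at 12 h and 7.19, 6.81, 7.19 and 7.10 at 72 h, a fall of 2.94 ± 0.27 (adjusted p = 7.51e-09). CHGA, the granule protein chromogranin A, fell by 2.37 ± 0.20, VGF, a precursor of several peptides, by 2.42 ± 0.32, and the neuropeptide gene GAL by 2.02 ± 0.28. SYT4, a synaptotagmin, was at least 2.59-fold lower, and SCG3, a granule protein listed among neuronal genes, fell by 1.59 ± 0.13. The 4 higher genes were that of the amidating enzyme PAM, with a rise of 1.64 ± 0.13, and SCG5 (0.78), PDYN (0.61) and CPE (0.59). CPE did not pass without replicate 2 at 72 h (0.38). NPPB, a natriuretic peptide, stood at 6.66 at 0 h, 8.46 at 12 h, 7.28 at 24 h and 6.80 at 72 h, and its fall from 12 h was at least 2.56-fold.

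Of 19 tested genes of epithelial junctions 10 fell, 4 of them by at least 2-fold, and none rose. CLDN7, a tight junction claudin, read 11.06, 11.13, 11.04 and 11.21 at 12 h and 9.35, 8.60, 10.15 and 9.75 at 72 h, a fall of 1.65 ± 0.19. EPCAM, an adhesion molecule of epithelia and stem cells, fell by 1.40 ± 0.23 to 11.63, 10.51, 12.31 and 12.18. In both genes replicate 2 at 72 h, the array low in CLEC2A, was the lowest, and without the 6 such arrays the falls were 1.33 and 1.00. The E-cadherin gene CDH1 did not pass (-0.16 ± 0.13, adjusted p = 0.351). Matrix genes rose in 8 of 22 and fell in 1, with FBN2, fibrillin, up by 1.74 ± 0.22 and the basement membrane chains COL4A5 by 1.14 ± 0.12 and LAMA1 by 0.99 ± 0.13. SPARC, a matrix glycoprotein, fell by 0.85 ± 0.15.

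Axon guidance genes rose in 13 of 23 and fell in 2. UNC5A, a netrin receptor, rose by 1.79 ± 0.24, from 7.44, 7.45, 7.98 and 7.79 to 9.68, 9.14, 9.49 and 9.53, and SEMA5B, a semaphorin, by 1.60 ± 0.16. Among Eph receptors and ephrins 5 of 11 rose and 3 fell. EFNB2, an ephrin ligand, rose by 1.10 ± 0.23, whereas EPHA1 fell by 0.72 ± 0.13.

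CFAP95, PRICKLE1 and ANXA3, also among the 15 largest falls, belong to none of the lists. CFAP95, a protein of cilia, fell by 3.22 ± 0.35, PRICKLE1, of the planar cell polarity pathway, fell by 2.70 ± 0.27, and ANXA3, an annexin, fell by 2.60 ± 0.22. PRICKLE1 read 11.34, 11.20, 10.68 and 11.38 at 12 h and 8.61, 8.39, 8.66 and 8.12 at 72 h. JUN, an immediate early transcription factor, was at least 2.39-fold lower, and MX1, an interferon-induced GTPase, fell by 1.66 ± 0.20. Of 17 immediate early genes 7 fell and none rose.

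Few mitotic and ribosomal protein genes passed the test. Of 34 mitotic genes 4 rose and none fell. Of 65 ribosomal protein genes 4 rose and 7 fell. These shares were below those among all genes. Of 34 replication genes 8 rose (23.5%) and 3 fell (8.82%), the rises above the share among all genes and the falls below it. Against 24 h the counts were larger for division, with 12 replication genes higher and 1 lower and 9 mitotic genes higher and 2 lower. CENPF, a kinetochore protein, had the largest mitotic rise at 0.72 ± 0.12. Of 54 subunits of oxidative phosphorylation 15 fell (27.8%) and 1 rose (1.85%), none by 2-fold. AMPK subunits and regulators, a second target of dorsomorphin, rose in 4 of 10 and fell in 1, with changes of 0.50 at most.

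Among other cell types that the culture could hold, markers of mesoderm, endoderm, trophoblast and amnion, and neural crest were largely dim. Of 14 genes of surface ectoderm and simple epithelium named on the array, 8 were bright enough to test. Of these 1 rose (12.5%) and 4 fell (50%), with a median change of -0.34. The mesoderm and primitive streak markers TBXT, EOMES, MESP1, TBX6 and HAND1 lay below background on all 24 arrays. So did SOX17, FOXA2, GATA4 and GATA6 of endoderm, CGA, CDX2, GATA3, TFAP2A and ISL1 of trophoblast and amnion, and PAX3, PAX7 and TFAP2B of neural crest. Of 5 tested endoderm genes 2 rose and 2 fell. CXCR4, a chemokine receptor that is also found outside endoderm, rose by 1.34 ± 0.18 and HHEX, a homeobox factor, by 0.73 ± 0.25. FOXA3, a forkhead factor, fell by 0.36 ± 0.13. HHEX did not pass when replicate 1 or 2 of 12 h or replicate 3 or 4 of 72 h was left out, nor FOXA3 when replicate 1 or 3 of 12 h or replicate 2 or 4 of 72 h was. AFP, made by visceral endoderm, fell by 1.88 ± 0.26, from 8.34 to 9.38 at 12 h to values of which a single one exceeded background at 72 h. SOX10, a crest factor, rose by 0.82 ± 0.16 to a mean of 7.90, and FOXD3, shared by crest and stem cells, fell by 0.81 ± 0.12 to below background, a call lost with values below background set to it (-0.03). ZEB2, a zinc finger repressor of neuroectoderm and mesenchyme, was at least 3.72-fold higher at its brightest measurement and rose by 1.30 with the mean of its measurements. In bulk RNA, fewer cells of a type and less RNA per cell cannot be told apart.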

How the data were processed

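RNA of H1 cells was hybridised to HumanHT-12 v4 bead arrays of Illumina, 4 arrays at each of 6 times. The log2 values were used as deposited in the series matrix. They have nearly the same distribution on every array, and how the authors corrected background, normalized and filtered probes is not given in the sources used here. A table of scanner intensities was not used, since its column names match no sample label. Of 37900 rows 26221 carried 1 gene symbol in GEO's platform annotation, 7 carried several and 11672 none, and rows with several were not named. Entrez identifiers of 26191 rows were found in RefSeq and 0 symbols needed updating. Of the 37900 rows 10159 shared their values with another row. With such repeats merged 32487 measurements remained, and a gene with several was represented by the brightest.

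Genes above background, the 99th percentile of the olfactory receptor measurements, on at least 4 arrays were tested with limma 3.58.1 in R 4.3.3, with a mean for each time over all 24 arrays and 18 residual degrees of freedom. Every adjusted p is from limma's moderated two-sided test with Benjamini-Hochberg adjustment over all genes tested. Errors of changes are standard errors of that model, and changes are 72 h minus 12 h on the log2 scale unless stated. For a gene that stayed under background on the 4 arrays of 1 time, the fold is a bound, the mean of the brighter time against the background itself. The procedure was tested on simulated data.

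The genes named were drawn by a rule that covers 329 genes, of which the text names those it describes: the 15 largest rises and 15 largest falls with separate arrays, up to 5 members of each list in each direction, all members of lists with at most 12 tested genes, and a set of markers. The members, the 43 lists and the rule were chosen with earlier results of these data known, and the list of neuropeptides was added after their values were seen. Gene lists are described by counts and medians with no test. Promoter sequences are RefSeq's, and CArG boxes, which need letters for alternatives, are given by name. The main model did not pair arrays of 12 h and 72 h by replicate number. Same-numbered deviations correlated at 0.20, 0.06, 0.27 and 0.09, and 2 arrays of 12 h correlated best with their own number at 72 h. These values do not settle whether the numbers mark a partial pairing.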

Additional observations from a re-analysis of the deposited data

Results flagged for a closer look

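For 151 of the genes named above, 302 groups of 4 were examined for a single array apart from the others of its time. Chance gives such a gap in about 1 group in 20. It was present in 21 groups. Replicate 2 at 72 h, which is low in CLEC2A, was the array in 9 of them. It was low in SIX3 (7.93, others 9.87 to 10.02), POLR3G (8.99, others 9.82 to 9.91), HESX1 (11.08, others 11.71 to 11.83), DLX5 (7.66, others 8.63 to 8.68) and FGFR3 (11.26, others 11.56 to 11.58). It was high in TNFRSF19 (11.98, others 11.25 to 11.33), AXIN2 (10.25, others 9.43 to 9.46), DNAJB9 (9.50, others 9.11 to 9.18) and ACTA2 (10.36, others 10.03 to 10.07).

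Replicate 4 at 12 h, also low in CLEC2A, was high in LHX2 (7.86, others 6.24 to 6.51), DLK1 (7.80, others 6.34 to 6.47) and EMX2 (7.37, others 6.74 to 6.81). Replicate 3 at 12 h was high in TET1 (9.35, others 8.81 to 8.85) and TEF (7.47, others 7.06 to 7.09) and low in NR1D2 (7.39, others 7.65 to 7.68). Replicate 2 at 12 h was low in FOXO1 (9.90, others 10.43 to 10.46) and DLX5 (6.18, others 6.36 to 6.39). Replicate 4 at 72 h was high in DNMT3B (10.52, others 9.87 to 9.95), SPARC (10.36, others 9.78 to 9.87) and FOXD3 (6.30, others 6.15 to 6.16) and low in MFNG (8.11, others 8.54 to 8.56).

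Measurements with no gene name were outside the comparison. Of 2321 that were bright enough to test, 302 were higher and 300 lower at 72 h than at 12 h in limma's test, and 50 of these changed by at least 2-fold, 23 higher and 27 lower.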

How the results depend on the processing

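The count of 3866 genes between 12 h and 72 h lay between 3335 and 3773 when single replicates of these times were left out, with 1652 to 1875 higher and 1681 to 1898 lower. The counts of changes of at least 2-fold ranged from 187 to 220 and from 183 to 215, and the count of called list members, 351, from 315 to 348. With only replicates 3 and 4 at every time the comparison kept 1311 genes, 637 higher and 674 lower, and 180 list members; halving the arrays leaves less information on the spread by construction. Calls lost there included NES, VIM, TXNIP, ARRDC4, BAMBI, FGF2, SPARC, GAS1, HSPA5, PKM, SOX10, EPHA1, LHX2, MT1M, MTF1, HHEX, FOXA3 and ACTA2. With only replicates 1 and 2 those of AXIN2, STMN2, DUSP6, FOXA3 and LHX2 were lost. Between 24 h and 48 h the count of 900 was the least stable, from 418 to 1176 without single replicates, 12 with only replicates 1 and 2 and 433 with only replicates 3 and 4. The count of 3108 between 24 h and 72 h was 2562 to 3162 without single replicates, 1577 with only replicates 1 and 2 and 1314 with only replicates 3 and 4. The cause of these differences was not tested. With the replicate number as a block the main count was 4185, and with the 6 arrays low in CLEC2A as a block it was 4266. No change of a named gene reversed its direction where called. Of the 329 genes that the naming rule covers 268 passed, and 141 of these kept the call under all 23 alternatives, and the median change of all genes stayed within 0.01 of 0. Signals near background limit the rest. With values below it set to it, NANOG stood at -0.90, ETV5 at -0.92, DLX5 at 1.31 and SP5 at 0.99. PTCH1 stood at 0.38, SYT4 at -1.37 and MEG3 at 0.79 there, and all of these genes still passed. Calls were lost in that setting for LHX2 (0.48, limma adjusted p = 0.188), MT1M (-1.24, 0.0601) and HHEX (0.41, 0.0908). FGF8, CRIPTO and FOXD3 lost theirs as well, as given above.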
